A study of Mus musculus with 2 samples.

Results

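The proteasome subunit genes were followed in single nuclei of mouse gastrocnemius-plantaris (GP) muscle with and without Net39 (Plpp7), a protein of the inner nuclear membrane of muscle fibres. The members were all genes whose symbol is Psma, Psmb, Psmc, Psmd, Psme, Psmf or Psmg followed by a number. The symbols of 48 genes matched, and 45 of these, among 27998 genes listed, had at least 10 unique molecular identifiers (UMIs, counted RNA molecules) over both libraries as deposited. The remaining 3 were Psmb11 with 0 UMIs, Psmg3 with 1 UMI and Psmb8 with 6 UMIs. A count of 0 here allowed at most 0.159 CPM, that is, UMIs per 1000000 UMIs counted in the same nuclei. Psmc3ip and Psme2b begin with the same letters but are not proteasome subunits by this rule and were left out.

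The proteasome is the protease that degrades ubiquitin-tagged proteins. Its barrel-shaped core is made of stacked rings of alpha (Psma) and beta (Psmb) subunits, and Psmb5, Psmb6 and Psmb7 carry the peptidase sites. In cells stimulated by interferon these are exchanged for Psmb8, Psmb9 and Psmb10, which form the immunoproteasome. The regulatory particle that caps the core has a base, with the ATPases Psmc1 to Psmc6 and the ubiquitin receptors and scaffolds Psmd1, Psmd2 and Psmd4, and a lid, in which Psmd14 removes ubiquitin chains before the substrate enters. Psme1, Psme2, Psme3 and Psme4 encode other activators that can sit on the end of the core, Psmf1 an inhibitor, and Psmg1 to Psmg4, Psmd5, Psmd9 and Psmd10 chaperones of assembly. In skeletal muscle the proteasome degrades myofibrillar proteins during atrophy, when the ubiquitin ligases Fbxo32 and Trim63 mark them.

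The Ctrl library came from Net39 fl/fl mice without Cre and the cKO library from HSACreERT2;Net39 fl/fl mice, both on the B6C3F1 background, at 5 months of age and 3 months after tamoxifen. Both groups received tamoxifen. The Cre is driven by the human skeletal actin promoter, so that deletion was directed to the fibres and not to the other cell types of the muscle. Muscles were pooled by genotype, 3 per library, and there was 1 library per genotype. No test between genotypes was therefore possible, no p-value is given, and every interval below is an exact 95% interval that covers counting error alone. Plpp7 UMIs come from a kit that reads transcripts near their end, and the counts hold no read positions. They need not lie in the deleted first exon and do not check the deletion here. The paper reported lower Net39 RNA and protein in cKO muscle.

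After filtering, 3526 Ctrl and 3595 cKO nuclei were used, with a median of 2039.5 and 1612 UMIs each. The 5 clusters led by markers of fibro-adipogenic, endothelial and mural, immune, satellite or adipose cells were taken as nuclei outside the fibres (615 Ctrl and 351 cKO nuclei), and the rest as myonuclei (2911 and 3244). Summed fibro-adipogenic markers were at 2722 and 1539 CPM outside the fibres against 58.4 and 27.0 CPM in Ctrl and cKO myonuclei, all 9 of them detected in each. Summed fibre markers were at 67412 and 61100 CPM in myonuclei, and still at 36197 and 35687 CPM outside. A myonucleus was given a main myosin where at least 60% of at least 3 UMIs of Myh7, Myh2, Myh1 and Myh4 came from 1 of them. This gave 19 Ctrl and 276 cKO nuclei of the slow Myh7 class, 165 and 319 of the Myh2 class, 300 and 381 of the Myh1 class and 1868 and 1403 of the fast Myh4 class, the others being hybrid or undetermined. The nuclear RNA Malat1 took 26.6% of the UMIs of Ctrl and 31.4% of those of cKO myonuclei, so that every CPM value of the cKO library stands on a smaller remainder. Barcode sequences shared by the libraries numbered 5.

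Stretches of promoter are shown first, for 5 of the members described later, chosen after their levels and windows were seen; none is shown for Psmd3, Psmb7 and Psmb2. RefSeq promoters on GRCm38.p6, 300 bases from 250 before to 50 after the start, were matched for 37 of the 45 members and were searched on both strands. TGACTCAGC is 1 form of the antioxidant response element, through which Nfe2l1 drives proteasome genes. It was in the promoters of 0 of the 37 members matched and in 0.503% of all 27025 genes. Other exact forms of the element were not counted on their own, so the count of 0 does not show that members lack it. The looser form TGANNNNGC was in 56.8% of members and 45.05% of all genes, and CCAAT, the box bound by NF-Y, in 35.1% and 41.1%. The letters CCGGAAG, a form of the site read by ETS factors, were in 13 members, or 35.1%, against 9.93% of all genes. This last motif was chosen after the windows had been seen. The matches describe letters in these windows and no site in use.

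The windows below, with CCGGAAG or its reverse complement CTTCCGG in capitals, belong to 4 members described later, and are written along the gene's strand, the plus strand for Psme4, Psmc6, Psmd11 and Psmc1 alike. They stand at chr11:30771712-30771738 for Psme4, chr14:45329714-45329740 for Psmc6, chr11:80428594-80428620 for Psmd11 and chr12:100110164-100110190 for Psmc1.
Psme4: tggccccgccCCGGAAGtgacttgagg
Psmc6: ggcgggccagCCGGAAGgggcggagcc
Psmd11: gagggcgggtCTTCCGGgtgtgtgttt
Psmc1: ggtggatgcaCTTCCGGcggtggcgat
The looser response element, in capitals, is shown for Psmd1 at chr1:86064385-86064413 on the plus strand, a base scaffold whose promoter had no CCGGAAG, and for Psme4 at chr11:30771758-30771786, where it lies on the opposite strand.
Psmd1: tggcgggtgaTGAGTGGGCctctctttgc
Psme4: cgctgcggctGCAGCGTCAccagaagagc
Psme4 and Psmc6 were the genes shown here whose promoters held both sets of letters.

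Members were sparse in single nuclei. The 31202 member UMIs used gave a median of 4 per Ctrl myonucleus and 3 per cKO myonucleus, at a median of 2142 and 1653 UMIs of all genes. Psme4 alone, the activator that caps the core without ATP and is known for work in the nucleus, held 8213 of them, or 26.3%. Psmd1 held 9.10%, the lid subunit Psmd11 8.41% and the alpha subunit Psma3 7.29%. At the other end Psmb9 had 7 UMIs, Psmd10 8, Psmb10 12 and Psma8 21 in the nuclei used. Long genes gave more UMIs, with a Spearman correlation of 0.58 between a member's UMIs and its gene span over the 45 kept members of the same libraries, and 0.38 with its exon length. Per kilobase of gene span the order was different. Psmd7, a lid subunit, had 108 UMIs per kb, Psma3 had 105, the ubiquitin receptor Psmd4 had 90.9 and Psme4 had 75.6. The lowest kept member on this scale was Psma8, at 0.374 UMIs per kb, followed by Psmd10 and Psmb9. For 8 kept members another gene overlaps on the same strand and could share reads, among them Psmd1, Psmb7, Psmd14, Psmb5 and Psmd12.

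The first comparison asked how member levels differed between cKO and Ctrl myonuclei. Their sum was nearly the same, with 1 lid subunit lower by more than 1.5-fold and the activator Psme4 slightly higher. All members together stood at 1983 CPM in Ctrl (15178 UMIs) against 1922 CPM in cKO (12820 UMIs), with a log2 ratio at -0.045 (-0.079 to -0.011). Without Psme4 the sums were 1482 and 1374 CPM, and the log2 ratio was -0.11 (-0.15 to -0.07). With Malat1 and mitochondrial genes left out of the totals the ratio of the full sum was 0.054, so the sign of this small difference depended on that choice. Of the 45 members 36 had at least 50 UMIs over both libraries. Of these, 0 were higher in cKO by 1.5-fold, beside 7.64% of the 9201 genes that reached the same count, and 1 was lower, beside 10.3%. The members' median log2 ratio was -0.04 and that of all 9201 genes -0.08, with 14 members above 0 and 22 below. Of all genes 58.9% were below 0, and relative to their median 20 members were above and 16 below.

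Psmd3, a scaffold of the lid, was the member that fell. It lies at chr11:98682554-98695979 on the plus strand of GRCm38, the build of all gene positions here, and had 283 UMIs in Ctrl and 144 in cKO myonuclei, 37.0 against 21.6 CPM, a log2 ratio of -0.78 (-1.08 to -0.48). The lower level in cKO was seen in the Myh4 class, at 36.3 CPM in Ctrl against 21.3 CPM in cKO (-0.77, -1.21 to -0.35). The Myh1 class had 36.5 and 18.1 CPM, from 29 and 16 UMIs. Hybrid nuclei had 56.7 and 18.6 CPM, and undetermined nuclei 38.5 and 18.1 CPM. The Myh7 class of cKO was at 36.1 CPM (22 UMIs), near the level of Ctrl myonuclei, while Ctrl had 1 UMI in that class, 24.7 CPM. In the Myh2 class the values lay together, at 24.7 CPM in Ctrl (10 UMIs) against 22.1 CPM in cKO (15 UMIs). Outside the fibres, to which Cre was not directed, Psmd3 stood at 19.8 and 21.0 CPM from 26 and 12 UMIs. Its level in all cKO myonuclei was thus close to that outside the fibres in both libraries, the Myh7 class apart.

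Catalytic subunits and the base scaffolds had lower sums in cKO, within 1.5-fold. Psmb7, which carries the trypsin-like site and lies at chr2:38588036-38644087 on the minus strand, went from 104 CPM in Ctrl (798 UMIs) to 76.9 CPM in cKO (513 UMIs), with a log2 ratio at -0.44 (-0.60 to -0.28). Psmb6, with the caspase-like site, had 6.53 and 5.40 CPM, from 50 and 36 UMIs. Psmb5, the chymotrypsin-like subunit, had 22 and 17 UMIs and did not reach the minimum. The group of Psmb5, Psmb6 and Psmb7 had a log2 ratio of -0.42 (-0.58 to -0.27), which rested almost entirely on Psmb7.

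Psmd1, at chr1:86064387-86139151 on the plus strand and the largest scaffold of the base, had 197 CPM in Ctrl against 158 CPM in cKO (1508 and 1055 UMIs), with a log2 ratio at -0.32 (-0.43 to -0.20). Its partner Psmd2 had 22.0 and 18.9 CPM (-0.22). The ubiquitin receptor Psmd4 had 61.0 and 50.7 CPM (-0.27, -0.47 to -0.06). All 3 members of this group were lower in cKO, with a summed log2 ratio of -0.30 (-0.39 to -0.20).

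In the lid 7 of 8 members were lower in cKO, and their sum differed by -0.09 (-0.16 to -0.02), close to the median of -0.08 of all genes. The deubiquitinase Psmd14 had 94.5 CPM in Ctrl against 82.0 CPM in cKO (-0.20, -0.37 to -0.04). Psmd11 was the member above 0, with 161 and 170 CPM (0.08). The alpha ring gave -0.08 (-0.17 to 0.02), the structural beta subunits 0.06 (-0.07 to 0.18) and the ATPases 0.01 (-0.12 to 0.14). The ATPase Psmc4, at 8.62 and 7.045 CPM, was among the lowest ratios, at -0.29 (-0.86 to 0.27), an interval that included 0.

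The activators leaned the other way, through Psme4. This gene, at chr11:30771726-30880361 on the plus strand, had 501 CPM in Ctrl myonuclei (3831 UMIs) and 547 CPM in cKO (3651 UMIs), with a log2 ratio at 0.13 (0.06 to 0.19). Psme3 had 3.92 and 4.05 CPM. Psme1 and Psme2, the interferon-induced activators, had 20 and 8 UMIs in Ctrl and 15 and 9 in cKO. The inhibitor Psmf1 stood at 8.49 and 8.69 CPM. Among the highest ratios were the assembly chaperones Psmd5 (0.30), Psmd9 (0.24) and Psmg2 (0.20) and the alpha subunits Psma4 (0.26) and Psma2 (0.18), and the interval of each included 0. Assembly chaperones as a group had 55.1 CPM in Ctrl against 62.8 CPM in cKO, with a log2 ratio at 0.19 (-0.01 to 0.39). Psmb4 and Psmg4 had too few UMIs for the comparison, 14 in Ctrl and 28 in cKO for Psmb4 and 13 and 28 for Psmg4. These last 2 genes were named after their values were seen.

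**Figure D1:**
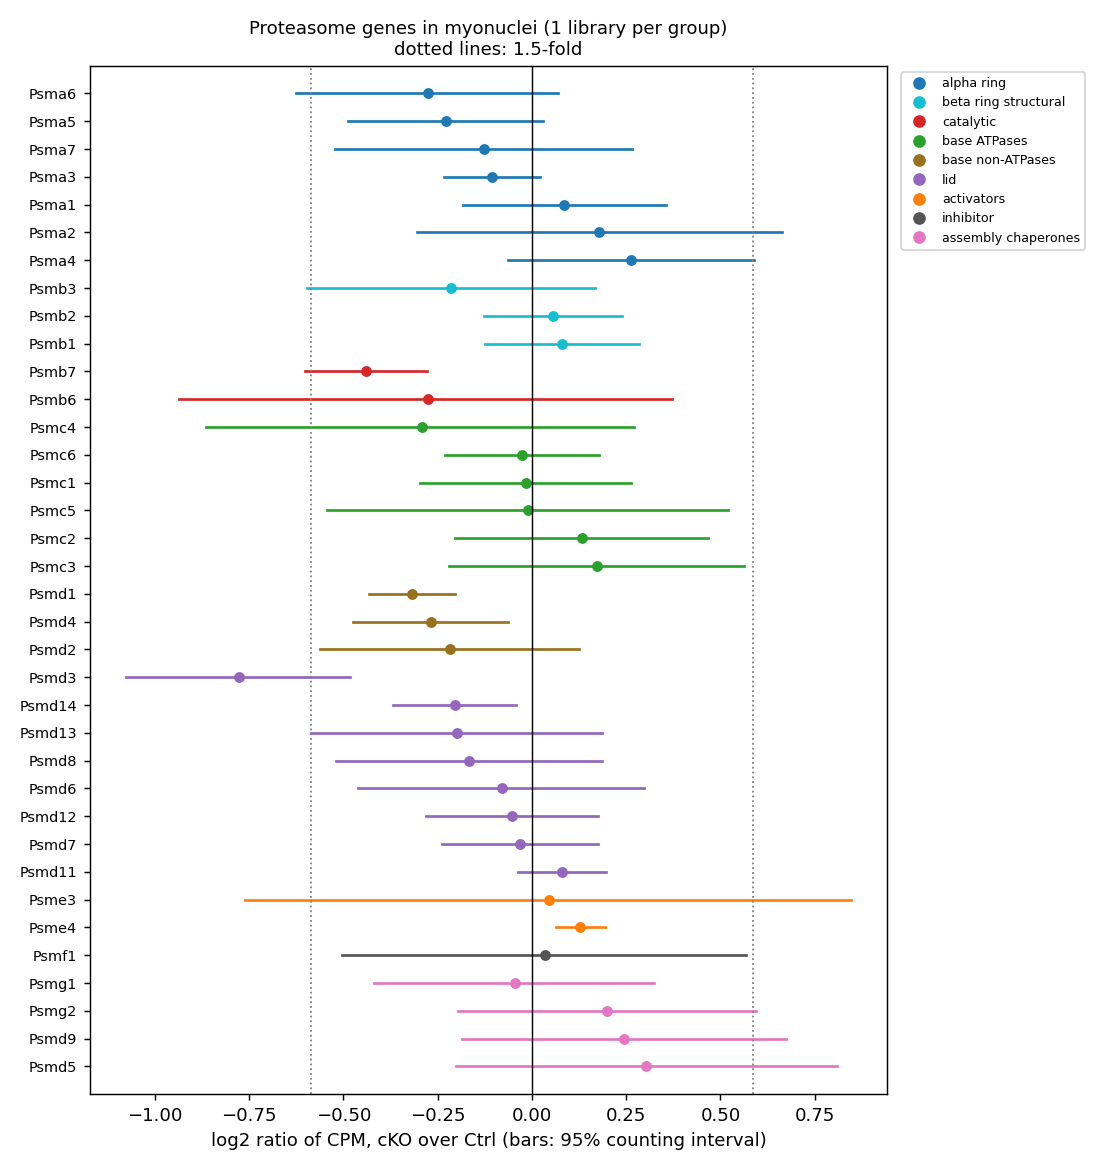
Log2 ratio of CPM in cKO over Ctrl myonuclei (horizontal axis) for the 36 members with at least 50 UMIs, coloured by role, with bars for the 95% counting interval and dotted lines at 1.5-fold. Psmd3, at -0.78, is the 1 point beyond a dotted line, 14 points are above 0 and 22 below.

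Genes around the proteasome were compared in the same nuclei, from lists chosen by function. The chaperonin, a ring-shaped folding machine of similar complexity, had all 7 listed members that passed higher in cKO, at 116 CPM in Ctrl against 140 CPM in cKO (0.27, 0.13 to 0.40). The COP9 signalosome, whose subunits are related to those of the lid, gave -0.08 (-0.19 to 0.02), and ribosomal protein genes gave 0.05 (0.01 to 0.08). The 10 muscle ubiquitin ligases, among them Fbxo32 and Trim63, had 3783 CPM in Ctrl against 2048 CPM in cKO, with a log2 ratio at -0.89 (-0.91 to -0.86). Of 9 ligases that passed, 3 were above 0 and 6 below, so the sum rested on the abundant ones.

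The route that raises proteasome transcription runs through Nfe2l1, which Ngly1 and Vcp release from the endoplasmic reticulum and Ddi2 cleaves. Of 8 listed genes 7 passed, 3 above 0 and 4 below, with a summed log2 ratio of -0.19 (-0.25 to -0.14). Nfe2l1 had 55.4 and 61.7 CPM in Ctrl and cKO, a log2 ratio of 0.16 (-0.04 to 0.36). Ddi2 had 299 and 221 CPM (-0.44, -0.53 to -0.34), and Ngly1 had 109 and 76.7 CPM (-0.51, -0.67 to -0.35). Nfe2l2, the oxidative stress factor that reads the same element, had 83.2 and 114.7 CPM (0.46, 0.31 to 0.62). Ubiquitin and its activating enzymes had 161 and 207 CPM (0.36, 0.25 to 0.48). In that list Ubb, a polyubiquitin gene induced by stress, was past 1.5-fold, with 48 UMIs in Ctrl and 80 in cKO (0.94, 0.40 to 1.48). Other proteins bound to the proteasome gave -0.19 (3 of 13 above 0), autophagy genes 0.12 and antigen-processing genes 0.21. Nfe2l1, Nfe2l2, Ddi2, Ngly1 and Ubb were picked from their lists after their values were seen.

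The second comparison asked whether member levels followed the main myosin of the nucleus. Relative to the Myh4 class, the summed members of the Ctrl library had log2 ratios of -0.07 (-0.41 to 0.26) in the 19 nuclei of the Myh7 class, 0.00 (-0.10 to 0.11) in the Myh2 class and -0.11 (-0.19 to -0.03) in the Myh1 class. In cKO the same ratios were -0.31 (-0.41 to -0.22), -0.23 (-0.32 to -0.14) and -0.15 (-0.23 to -0.07). The order in cKO was thus Myh7, Myh2, Myh1 and Myh4 from low to high, at 1671, 1770, 1866 and 2074 CPM, while in Ctrl the values were 1903, 1994, 1848 and 1991 CPM. Without Psme4 the cKO ratios were -0.19, -0.10 and -0.06. In Ctrl, leaving Psme4 out put the Myh7 class (19 nuclei) and the Myh2 class above the Myh4 class, and the Myh1 class below it. In cKO, Malat1 took 33.7% of the UMIs of the Myh2 class and 28.6% of those of the Myh4 class, against 25.1% and 26.4% in Ctrl. With Malat1 and mitochondrial genes out of the totals the cKO ratios were -0.21, -0.12 and -0.060. The Ctrl ratios depended on how the classes were set: with the main myosin taken after thinning to 500 UMIs the Myh2 class of Ctrl was at -0.12 (-0.29 to 0.047) and the Myh1 class at -0.19 (-0.35 to -0.033), and with 80% of at least 5 UMIs the Myh2 class was at -0.15 (-0.31 to 0.0068). A difference between the libraries in this order was not tested.

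Psme4 itself stood in this order in cKO, from 415 CPM in the Myh7 class (253 UMIs) and 428 CPM in the Myh2 class (290 UMIs) to 490 CPM in the Myh1 class (432 UMIs) and 637 CPM in the Myh4 class (1858 UMIs). In Ctrl it had 321 CPM in the Myh7 class from 13 UMIs, and 474, 448 and 508 CPM in the Myh2, Myh1 and Myh4 classes. Within the Myh4 class the ratio of cKO over Ctrl was 0.33 (0.24 to 0.41), below 1.5-fold. Within the Myh2 class the cKO value was 428 CPM and the Ctrl value 474 CPM, a log2 ratio of -0.15 (-0.42 to 0.12), and 0.029 (-0.24 to 0.30) without Malat1 and mitochondrial genes in the totals. The difference between the classes was not tested.

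Set between libraries, the summed members were at a log2 ratio of 0.059 (0.013 to 0.10) in the Myh4 class, 0.01 (-0.09 to 0.12) in the Myh1 class, -0.17 (-0.30 to -0.04) in the Myh2 class and -0.19 (-0.52 to 0.17) in the Myh7 class. The Myh2 value did not hold under other settings, at 0.0060 (-0.12 to 0.14) without Malat1 and mitochondrial genes in the totals, 0.013 (-0.19 to 0.21) with the main myosin at 80% of at least 5 UMIs and -0.030 (-0.24 to 0.18) with classes set after thinning. Without Psme4 the Myh4 class was at -0.045 (-0.10 to 0.0090). In that class 35 members passed, 20 above 0 and 15 below. Past 1.5-fold were Psmf1, higher, beside 6.0% of genes, and Psmd3, lower, beside 8.89%. In the Myh2 class 11 members passed, and Psmd7 was higher, beside 6.04% of genes, while Psmd4, Psmb2 and Psmd12 were lower, beside 14.5%. Psmd4 had 81.6 CPM in Ctrl against 42.8 CPM in cKO there, from 33 and 29 UMIs. In the Myh1 class 14 passed, with Psmb1 higher, beside 7.04% of genes, and 0 lower, beside 10.2%. Outside the fibres 15 passed, with 0 higher, beside 5.42%, and Psma5 lower, beside 13.4%. Psmd7, Psmd12, Psmb1 and Psma5 were named here after their values were seen. Psmb7 in the Myh4 class had 108 and 84.7 CPM, and Psmd1 had 206 and 181 CPM.

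Psmb2, a structural beta subunit at chr4:126677630-126709714 on the plus strand, was the member with the highest ratio of the Myh2 over the Myh4 class in Ctrl. It had 133 CPM there (54 UMIs) and 64.1 CPM in the Myh4 class (337 UMIs), a log2 ratio of 1.06 (0.62 to 1.48), and it was 1 of 6 members higher by 1.5-fold among 33 that passed, beside 20.1% of all genes, with 6 lower, beside 26.2%. These shares were near or below those of all genes. In cKO the 2 classes had 75.2 and 68.6 CPM (0.13, -0.34 to 0.58). Elsewhere Psmb2 stayed between 45.9 CPM, in the Myh7 class of cKO, and 85.6 CPM, in cKO nuclei outside the fibres, leaving aside the ligase-high cluster described later. Next to it in the Ctrl order were the ATPase Psmc2 (0.91) and the lid subunit Psmd12 (0.78), and at the low end Psmc5 with 1 UMI in the Myh2 class, Psma4 with 4 and Psmc4 with 2. In cKO the ends were Psma6 (-1.22), Psmb3 (-1.04) and Psma7 (-0.92), each from 6 UMIs in the Myh2 class, and Psmc3 (0.64), Psma4 (0.40) and Psmc6 (0.28). Past 1.5-fold among 28 that passed there were 1 higher member, Psmc3, beside 14.3% of genes, and 4 lower ones, beside 23.2%. Psmd11 was above its Myh4 level in the Myh2 class of both, with 237 against 155 CPM in Ctrl and 192 against 161 CPM in cKO. The interval of the cKO Myh2 value, 160.2 to 227.7 CPM, took in the Myh4 value, and that of Ctrl, 192.2 to 289.7 CPM, did not.

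**Figure D2:**
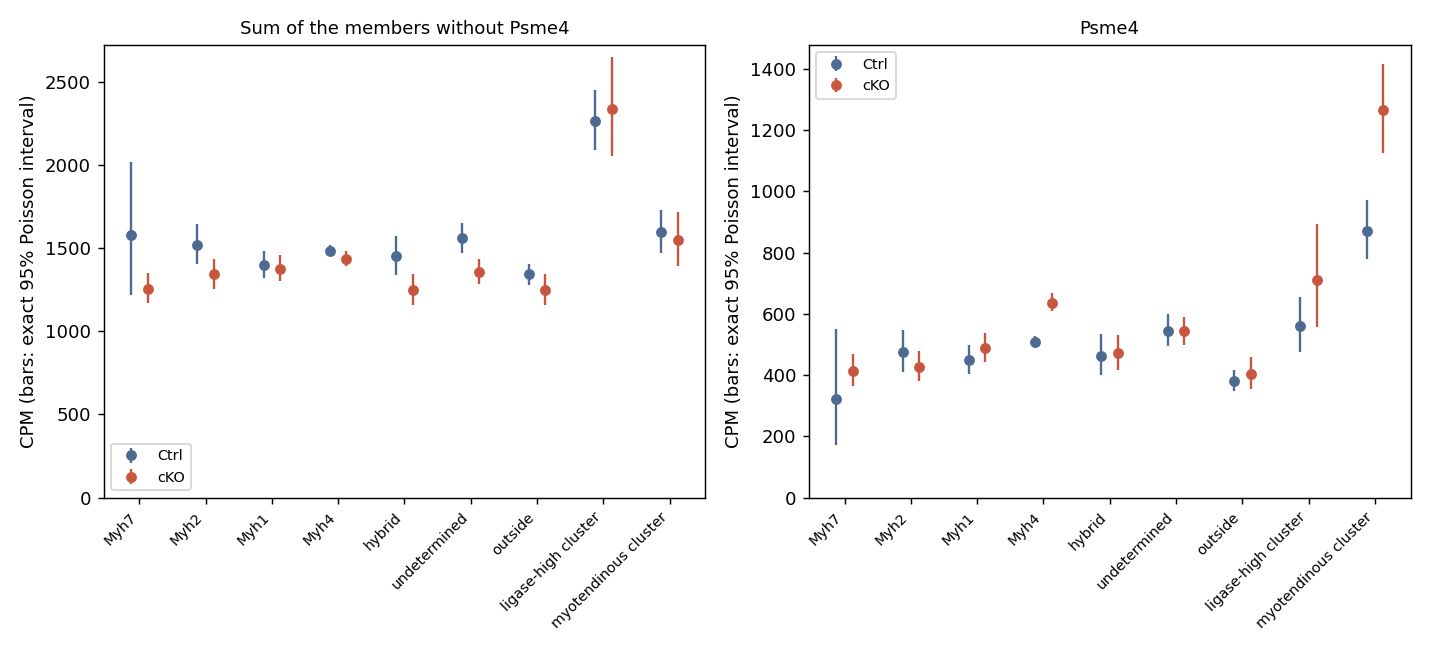
Summed CPM of the members without Psme4 (left) and CPM of Psme4 (right) by main myosin class, outside the fibres and in the ligase-high and myotendinous clusters, for Ctrl and cKO, with exact 95% Poisson bars. The left panel is highest in the ligase-high cluster of both libraries, at 2263 and 2336 CPM, and the right panel in the myotendinous cluster, at 872 and 1265 CPM.

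The third comparison set nuclei outside the fibres against myonuclei. Members were lower there in sum, by a log2 ratio of -0.20 (-0.27 to -0.14) in Ctrl, at 1723 against 1983 CPM, and -0.22 (-0.32 to -0.12) in cKO, at 1651 against 1922 CPM. Without Psme4 both ratios were -0.14. The direction in cKO depended on how these nuclei were defined: with at least 3 marker UMIs making up over 1% of a nucleus's UMIs in place of clusters, the ratio was 0.17 (-0.22 to 0.54) in cKO and -0.38 (-0.56 to -0.20) in Ctrl. All genes had a median of 0.27 and 0.20 in the same comparisons, above 0. By clusters the members' sum, weighted towards members with many UMIs, thus stood below the median gene. Of 35 members that passed in Ctrl, Psmd5 was higher by 1.5-fold, beside 34.1% of genes, and Psmd3, Psmb3 and Psmb7 were lower, beside 12.4%. Of 34 in cKO, 0 were higher, beside 30.5%, and 6 lower, beside 13.9%.

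Psme4 had 381 CPM outside the fibres in Ctrl and 404 CPM in cKO, below its 501 and 547 CPM in myonuclei. Psmb7 had 64.8 CPM outside and 104 CPM in myonuclei of Ctrl (-0.69, -1.03 to -0.36), and 75.1 and 76.9 CPM in cKO, where the gap was not seen. The low ratios of cKO came from few molecules: Psmd9 and Psmd5 had 2 UMIs each outside the fibres and Psmc1 had 8. At the high end were Psmd5, Psma6 and Psmc5 in Ctrl and Psmc4, Psmb3 and Psma6 in cKO, none of them with an interval that left out 0. Psma6 was thus among the highest in both libraries, at 0.47 and 0.53. RNA of fibre genes was present outside the fibres, with Myh4 at 1328 CPM there and 2132 CPM in myonuclei of Ctrl, and the 6 fibre genes listed at log2 ratios of -0.89 and -0.79. The part of that RNA in the members' levels outside was not tested.

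The immunoproteasome subunits Psmb8, Psmb9 and Psmb10 were almost absent from myonuclei. Together they had 5 UMIs in each library there, 0.653 CPM in Ctrl against 0.749 CPM in cKO. Outside the fibres they had 12 UMIs in Ctrl, 9.15 CPM, a log2 ratio of 3.81 (2.20 to 5.67), and 3 UMIs in cKO, 5.24 CPM (2.81, 0.12 to 5.17). All 12 Ctrl molecules were in the cluster of endothelial and mural nuclei, at 25.6 CPM, while the immune-like nuclei of Ctrl had 0 UMIs, which at their depth allowed up to 34.1 CPM. Psmb9 in myonuclei had 1 UMI in Ctrl and 0 in cKO, and Psmb10 had 3 in each.

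The activators Psme1 and Psme2 form a ring that is induced with the immunoproteasome, and had few UMIs in any class. Psme1 had 5.34 and 6.99 CPM outside the fibres of Ctrl and cKO and 2.61 and 2.25 CPM in myonuclei. Psme2 had 8.39 and 8.73 CPM outside, from 11 and 5 UMIs, and 1.05 and 1.35 CPM in myonuclei. The wider list of antigen-processing genes had log2 ratios of 1.83 in Ctrl and 1.67 in cKO. Psme1's interval included 0 in each library and Psme2's did not. The chaperonin (0.51 and 0.30) and ribosomal protein genes (0.26 and 0.28) were higher outside while the COP9 signalosome was at -0.02 and 0.00.

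**Figure D3:**
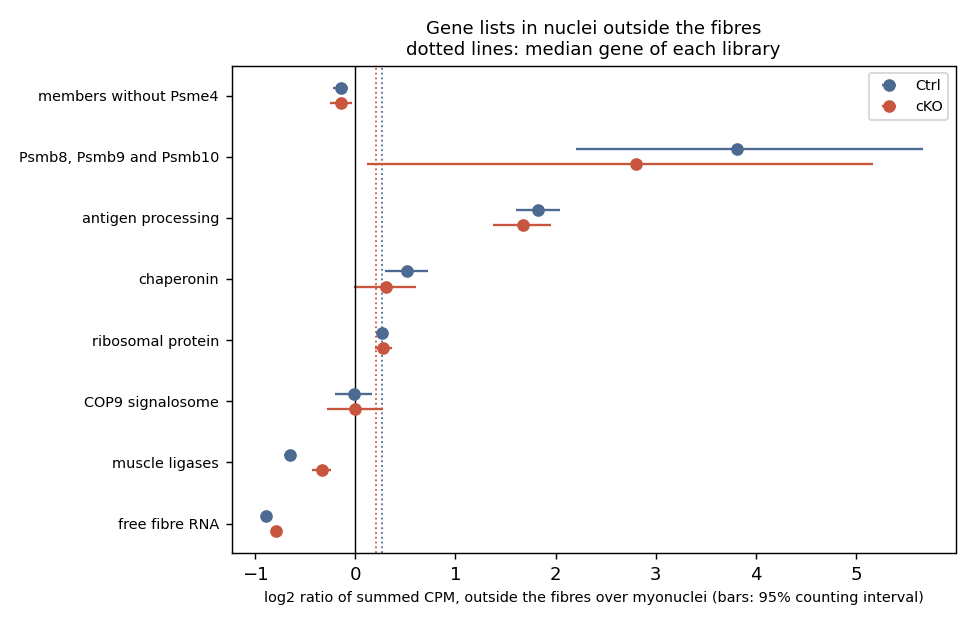
Log2 ratio of summed CPM outside the fibres over myonuclei for the members without Psme4 and 7 comparison lists, in Ctrl and cKO, with 95% counting intervals and dotted lines at the median gene of each library. The members lie below 0 at -0.14 in both libraries, left of the dotted lines at 0.27 and 0.20, while Psmb8, Psmb9 and Psmb10 lie at 3.81 and 2.81.

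Member levels stood high in a cluster of myonuclei marked by 4 listed genes, Ampd3, Trim63, Fbxo32 and Trp63, called the ligase-high cluster here. It held 120 Ctrl and 33 cKO nuclei. Fbxo32 had 3992 CPM inside and 1233 CPM in the other myonuclei of Ctrl, and 1279 and 486 CPM in cKO. Genes of the nuclei clustered define the cluster, members included, and it was singled out after the data were seen, so the values that follow are a description. Summed members had 2824 CPM inside and 1952 CPM in other myonuclei of Ctrl, a log2 ratio of 0.53 (0.43 to 0.64), and 3047 and 1904 CPM in cKO, 0.68 (0.51 to 0.84). Without Psme4 the ratios were 0.64 and 0.78. Between libraries the cluster's members differed by 0.11 (-0.08 to 0.30).

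The higher level was spread over most members. In Ctrl 30 of the 35 members that passed were above 0 and 16 were higher by 1.5-fold, beside 22.1% of genes, with Psmb6 lower, beside 22.2%. Psmb6 had 0 UMIs in the cluster, which allows up to 10.9 CPM, against 6.78 CPM in other myonuclei, so it cannot be placed. In cKO 26 of 33 were above 0 and 19 were higher by 1.5-fold, beside 24.5%, and Psma1, Psma6, Psmg1 and Psmb1 were lower, beside 31.2%. These 4 rested on 2, 1, 1 and 4 cluster UMIs, and the levels of Psma6 (18.3 CPM) and Psmg1 (17.2 CPM) in the other myonuclei were below what 3 UMIs were worth in the cKO cluster (28.8 CPM), so neither could be placed. Members counted as higher were not checked against this limit of 3 UMIs. The members' median log2 ratio was 0.54 in Ctrl, with 0.08 for all genes, and 0.73 in cKO, with -0.04 for all genes. Of 33 members plotted for both libraries 24 were above 0 in both and 2 below in both. Of the 15 with at least 20 UMIs in the cluster, 14 were above 0 in both, Psmb1 being the exception. That minimum counts UMIs of the cluster itself, which favours members high there, so this count adds no support.

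Among the parts of the regulatory particle, the lid had 8 of 8 members above 0 in each library, with sums at 0.65 (0.43 to 0.86) in Ctrl and 0.85 (0.50 to 1.17) in cKO. Its deubiquitinase Psmd14 had 215 CPM inside and 90.0 CPM outside the cluster in Ctrl (59 UMIs inside; 1.25, 0.85 to 1.64), and 135 and 81.2 CPM in cKO from 14 UMIs. Psmd11 had 211 against 159 CPM in Ctrl and 279 against 168 CPM in cKO. The ATPases were at 0.73 and 1.25, with all 6 above 0 in Ctrl and all 5 that passed in cKO. Psmc6 had 102 against 54.7 CPM in Ctrl and 135 against 54.2 CPM in cKO, and Psmc1 had 40.0 against 29.9 CPM and 115 against 28.6 CPM. The base scaffold Psmd1 had 277 against 194 CPM and 269 against 156 CPM.

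In the core, the alpha ring was at 0.81 (0.55 to 1.07) in Ctrl and 0.35 (-0.17 to 0.83) in cKO, where 36 UMIs were counted. Psma3 had 229 against 144 CPM in Ctrl and 211 against 136 CPM in cKO. Psmb7 had 160 against 102 CPM in Ctrl (0.65, 0.17 to 1.09) and 173 against 75.4 CPM in cKO (1.20, 0.43 to 1.87). The activators were in Ctrl at 0.15 (-0.10 to 0.38), with Psme4 at 560 against 498 CPM, and were at 0.36 (0.01 to 0.70) in cKO. Assembly chaperones gave 0.17 and 0.30. Psmc6, Psmc1, Psma3, Psma1, Psma6, Psmg1 and Psmb1 were named here after their values were seen.

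**Figure D4:**
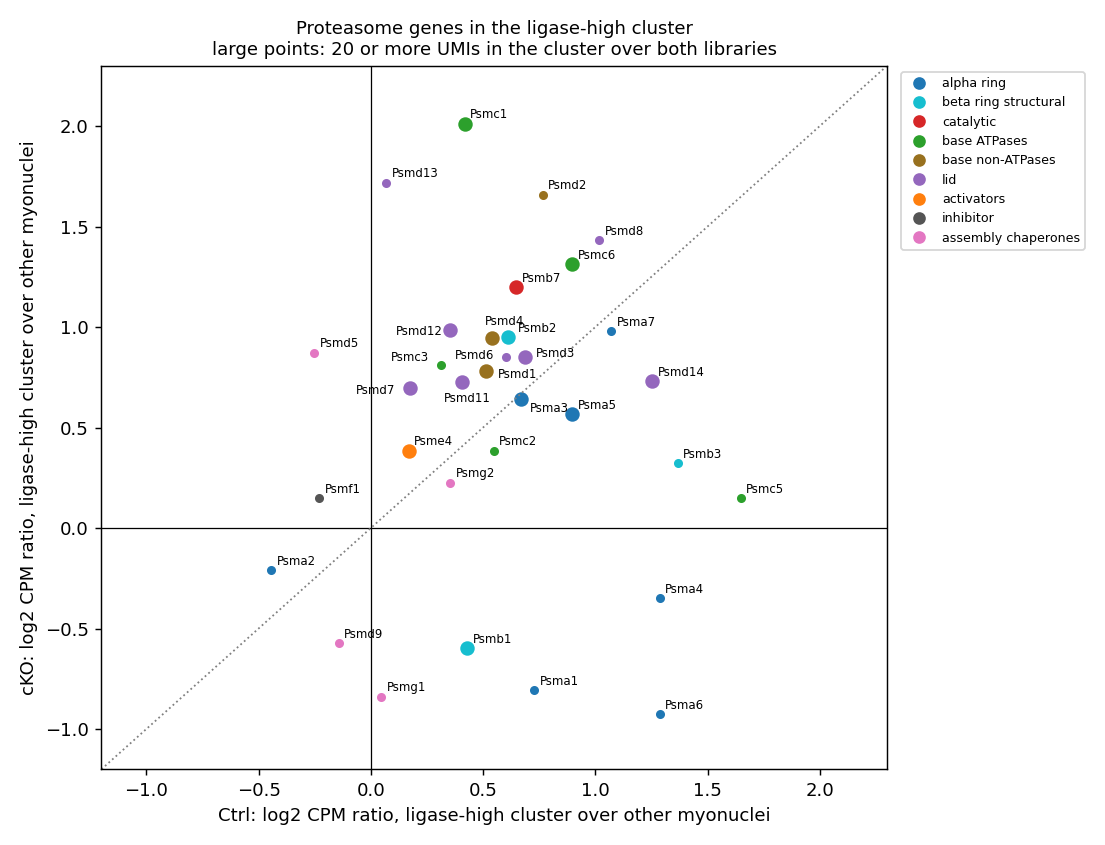
Log2 ratio of CPM in the ligase-high cluster over other myonuclei in Ctrl (horizontal axis) and cKO (vertical axis), 1 point per member, coloured by role, with large points for 20 or more UMIs in the cluster over both libraries and a dotted line of equal ratios. Of 33 points 24 lie above 0 on both axes, as do 14 of the 15 large points. Large points are picked by UMIs in the cluster itself, which favours members high there.

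Other lists in the same cluster were set beside the members. The chaperonin was at 0.13 (-0.40 to 0.62) in Ctrl and 0.23 (-0.56 to 0.91) in cKO, the COP9 signalosome at 0.12 and 0.23, and ribosomal protein genes at 0.29 and 0.02. Genes of proteasome transcription were at 0.70 (0.54 to 0.85) and 0.58 (0.29 to 0.85), with all 6 that passed above 0 in each library. Among them Nfe2l1 had 80.05 against 54.5 CPM in Ctrl and 202 against 59.5 CPM in cKO, and the protease Ddi2 had 517 against 291 CPM and 404 against 218 CPM. Autophagy genes were at 0.62 and 0.12, and ubiquitin with its activating enzymes at -0.39 and 0.16. Malat1 took 25.9% and 32.3% of the UMIs of the cluster, close to the share in all myonuclei, and mitochondrial genes 0.188% and 0.276%. With the members left out of the clustering, a cluster of 115 Ctrl and 29 cKO nuclei had the same 4 markers, held 110 and 28 of the nuclei, and had member ratios of 0.49 and 0.72. With likely doublets kept in the clustering no such cluster was found: the closest had 2 of the 4 markers and held 2 of the 120 Ctrl and 1 of the 33 cKO nuclei.

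The same question was asked without clusters, by the UMIs of Fbxo32 and Trim63, which are not members. Each myonucleus was thinned to 500 UMIs, and nuclei were put into classes of 0, of 1 or 2, and of 3 or more ligase UMIs: 939, 1398 and 574 nuclei in Ctrl and 2026, 1102 and 116 in cKO. Summed members in all their UMIs had 1884, 1976 and 2156 CPM in Ctrl and 1875, 1950 and 2440 CPM in cKO. The class of 3 or more stood above the class of 0 by 0.19 (0.13 to 0.26) in Ctrl and 0.38 (0.26 to 0.50) in cKO, and by 0.17 and 0.44 without Psme4. With the ligase-high cluster left out the ratios were 0.14 (0.07 to 0.20) and 0.24 (0.10 to 0.37). Of 28 members that passed in Ctrl 20 were above 0, and Psmc3 was higher by 1.5-fold, beside 6.22% of genes, while 0 were lower, beside 6.88%. Of 29 in cKO 21 were above 0, with 9 higher, beside 15.7%, and 3 lower, beside 14.8%: Psmd8, Psma6 and Psmd2, with 2, 1 and 3 UMIs in the high class. Psmd8 was named after its value was seen. The counts above 0 stand without the share of all genes above 0, and are not read as particular to the members.

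Psmb7, the trypsin-like subunit, stood higher with more ligase UMIs in both libraries. It had 99.2 CPM without a ligase UMI and 127 CPM with 3 or more in Ctrl (0.35, 0.07 to 0.63), and 73.2 and 135 CPM in cKO (0.88, 0.32 to 1.41). Psma3 had 138 and 161 CPM in Ctrl (0.23, -0.01 to 0.47) and 127 and 209 CPM in cKO (0.71, 0.27 to 1.13). Psmd11 had 151 and 169 CPM in Ctrl and 167 and 233 CPM in cKO. The receptor Psmd4 had 64.5 and 53.8 CPM in Ctrl and 49.6 and 69.6 CPM in cKO, with intervals that included 0. The chaperonin was at 0.03 and 0.11 in the same comparison and the COP9 signalosome at -0.01 and 0.12. The myosins moved with these classes too. From 0 to 3 or more ligase UMIs, Myh7 went from 498 to 184 CPM in cKO and from 33.5 to 3.28 CPM in Ctrl. Myh2 went from 330 to 137 CPM and Myh4 from 1993 to 2328 CPM in Ctrl, and Myh4 from 1910.5 to 1760.2 CPM in cKO. Within the Myh4 class, a comparison added after the data were seen, the members were at 0.23 (0.16 to 0.31) in Ctrl and 0.29 (0.11 to 0.47) in cKO, the latter from 50 nuclei with 3 or more ligase UMIs. Malat1 moved with these classes, at 27.3%, 26.4% and 25.9% of UMIs in Ctrl and 32.3%, 30.3% and 27.1% in cKO, and with Malat1 and mitochondrial genes out of the totals the member ratios were 0.16 and 0.27.

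**Figure D5:**
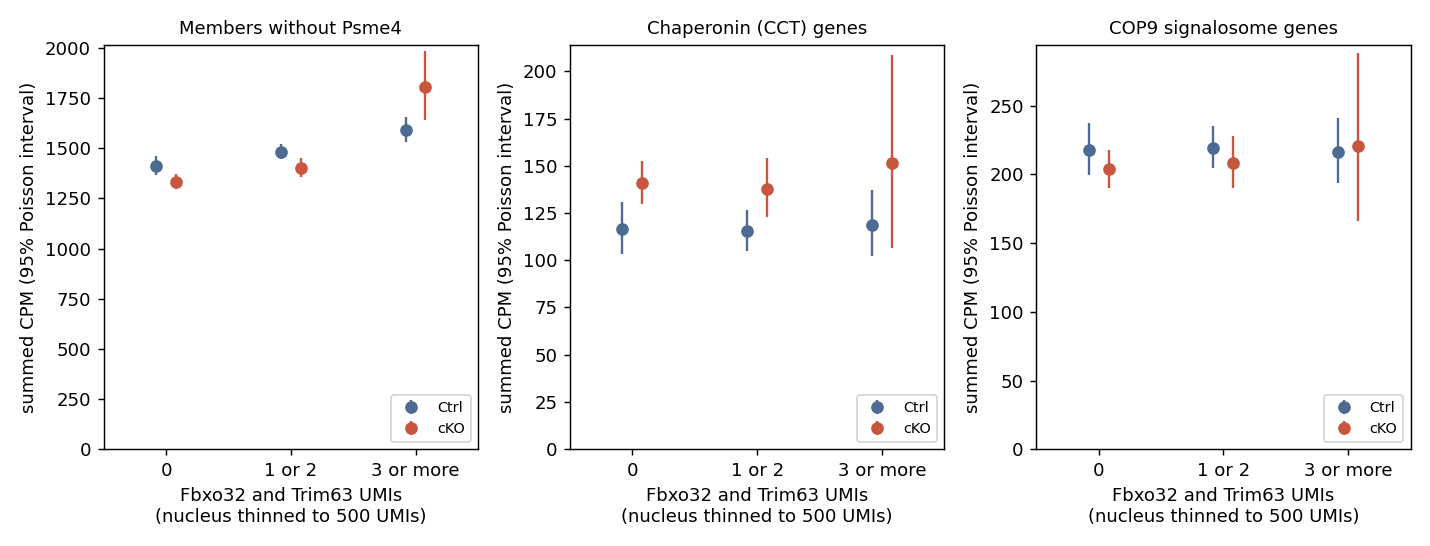
Summed CPM of the members without Psme4, of the chaperonin and of the COP9 signalosome in myonuclei with 0, with 1 or 2 and with 3 or more UMIs of Fbxo32 and Trim63 after thinning to 500 UMIs, in Ctrl and cKO, with exact 95% Poisson bars. In the left panel the class of 3 or more is at 1593 CPM in Ctrl against 1805 CPM in cKO, above 1412 and 1333 CPM in the class of 0, and in the other panels the bars of the classes overlap.

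Psme4 stood high in nuclei marked by genes of the fibre tip. In the myotendinous-like cluster, in which Col22a1, Adamts20, Col24a1, Ankrd1 and Tigd4 were all detected (106 Ctrl and 99 cKO nuclei), it had 872 CPM in Ctrl (318 UMIs) against 1265 CPM in cKO (296 UMIs). Over other myonuclei this was a log2 ratio of 0.86 (0.69 to 1.02) in Ctrl and 1.28 (1.10 to 1.45) in cKO, and it was 1 of 5 members higher by 1.5-fold among 35 that passed in Ctrl, beside 13.7% of genes, and 1 of 9 among 33 in cKO, beside 16.5%. Lower were 6 members in Ctrl, beside 21.7%, and 5 in cKO, beside 25.3%. The cluster was defined on all genes, so these values are a description too. The remaining members summed to 0.11 (-0.01 to 0.23) and 0.18 (0.02 to 0.33). In the ligase-high cluster, by contrast, Psme4 was at 0.17 and 0.39 and the remaining members at 0.64 and 0.78. Between libraries the activators were at 0.53 (0.30 to 0.76) in the myotendinous-like cluster, nearly all of it Psme4, and the members without Psme4 at -0.05 (-0.24 to 0.15).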

How the data were processed

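Nuclei of GP muscle were sorted and sequenced in droplets (the labels name the v2 kit of 10x Genomics, the methods a later one, so the chemistry is not settled here). The deposited files hold raw UMI counts per gene and barcode, which the authors made with Cell Ranger 3.1.0 on mm10 per the submitters' processing notes. The methods give default parameters for it, and whether the reference included introns is not given in the sources used here. The libraries held 3863 Ctrl and 3994 cKO barcodes with 10410316 and 8446070 UMIs. Barcodes with at least 100 genes, at least 500 UMIs and at most 10% mitochondrial UMIs were kept (3833 and 3908). Scrublet (scanpy 1.11.5) marked 0 doublets, so the 8% with the highest scores were removed (307 and 313). Nuclei were clustered with sctransform 0.4.2 and Seurat 5.3.0 in R 4.3.3 (3000 features, 25 components, resolution 0.3). The 13 clusters were named from marker lists.

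For each library, UMIs of the nuclei of a class were added and set against all UMIs of that class (CPM). Exact Poisson intervals for CPM and exact conditional intervals for ratios were computed with scipy 1.17.1, all at 95%. A gene entered a comparison with at least 50 UMIs over both sides and was counted as different past 1.5-fold. The steps were tested on simulated counts. Named were the catalytic and immunoproteasome subunits, activators, inhibitor, Psmd1, Psmd2, Psmd4, Psmd14 and Psmd11, the 5 highest and 5 lowest ratios of cKO over Ctrl in myonuclei, and the 3 highest and 3 lowest outside the fibres and in the Myh2 over the Myh4 class; any other gene, including those given for their level, was chosen after its values were seen. The members and gene lists were chosen with earlier results of these data known. Gene positions are from GENCODE M21, in which 27645 IDs were found and 353 were not. With 1 library per genotype no spread between samples could be measured.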

Additional observations from a re-analysis of the deposited data

Results flagged for a closer look

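The summed members had ratios of cKO over Ctrl on both sides of 0 in classes of myonuclei, a pattern that did not hold under other settings. The log2 ratio was 0.059 (0.013 to 0.10) in the Myh4 class and 0.19 (0.04 to 0.33) in the myotendinous-like cluster, and -0.17 (-0.30 to -0.04) in the Myh2 class. The Myh2 ratio was 0.0060 without Malat1 and mitochondrial genes in the totals, 0.013 with the main myosin at 80% of at least 5 UMIs and -0.030 with classes set after thinning. Without Psme4 the Myh4 class was at -0.045 and the myotendinous-like cluster at -0.05 (-0.24 to 0.15). Malat1 took 33.7% of cKO and 25.1% of Ctrl UMIs in the Myh2 class. Each class had 1 library per genotype, and the difference between these ratios was not tested.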

How the results depend on the processing

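Under the alternatives, 154 values of the comparisons stayed within their counting interval or count range and 27 did not. Among those 27 the sign turned for all myonuclei and the Myh2, Myh4 and outside classes in cKO over Ctrl. It also turned for the Ctrl Myh2 class to Myh4 and for cKO nuclei outside the fibres to myonuclei, each under the settings given here. Values near 0 that stayed within their interval changed sign in places too, as for the Ctrl Myh7 class to Myh4 without Psme4, and are not all listed. No paired analysis was possible because there was 1 library per genotype, and for the same reason no replicate could be left out. With Malat1 and mitochondrial genes out of the totals, the summed members in cKO over Ctrl were at 0.054 in all myonuclei, 0.0060 in the Myh2 class and 0.13 in the Myh1 class, the cKO Myh7, Myh2 and Myh1 classes were at -0.21, -0.12 and -0.060 to the Myh4 class, and nuclei outside the fibres at -0.31 (Ctrl) and -0.33 (cKO) to myonuclei. Without Psme4, the member with most UMIs, cKO over Ctrl was at -0.11 in all myonuclei and -0.045 in the Myh4 class, the cKO classes Myh7, Myh2 and Myh1 were at -0.19, -0.10 and -0.061 to Myh4, and the Ctrl ligase-high cluster at 0.64. With myosin classes set after thinning to 500 UMIs, cKO over Ctrl was at -0.030 in Myh2 and 0.12 in Myh1, and Ctrl Myh2 and Myh1 were at -0.12 and -0.19 to Myh4. With a main myosin at 80% of at least 5 UMIs, the Myh2 class was at 0.013 for cKO over Ctrl and at -0.15 to Myh4 in Ctrl. With nuclei outside the fibres set by marker UMIs, they were at 0.51 for cKO over Ctrl, and at -0.38 (Ctrl) and 0.17 (cKO) to myonuclei; by the mean of each nucleus's own CPM, Ctrl was at -0.27. The cause was not tested. With a minimum of 10 UMIs per gene, 2 of 42 members (Psmb4 and Psmg4) were higher and 2 (Psmd3 and Psma8) lower past 1.5-fold in myonuclei, beside 26.6% of all genes in either direction. At 2-fold 0 of 36 were lower, beside 6.35% of all genes in either direction. Psme4 in cKO over Ctrl myonuclei was at 0.23 without Malat1 and mitochondrial genes in the totals, where 21 members were above 0 and 15 below and the median of all genes moved from -0.08 to 0.02. With doublets kept, the ligase-high cluster was not resolved and gave no value.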
